A study of Mus musculus with 20 samples.

Results

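The effect of an antibody against PD-1 was measured in mice whose oestrogen supply had been removed, by comparing 5 mammary tumours from mice given letrozole and anti-PD-1 with 5 from mice given letrozole alone. These 10 tumours were chosen by their treatment labels from the 20 tumours of the series, and RNA-seq was done on each. All tumours grew from SSM3 cells, an oestrogen receptor-positive mouse mammary tumour line. They were placed in the mammary gland, in mice 2 to 4 months old of the strain 129S6/SvEv (the strain label reads 129/SvEv), and grew until they measured about 150 mm3. All 10 mice were ovariectomised and then given 1 mg/kg letrozole in 5% ethanol and saline under the skin daily for 25 days. The letrozole + anti-PD-1 mice also received 250 µg of antibody in 0.08 mL into the abdomen on days 3, 5 and 7 after surgery, and no control antibody is described for the other mice. Every tumour of both groups therefore carries the effects of ovariectomy and letrozole, and the comparison says nothing about either. The remaining 10 tumours came from sham-operated mice given vehicle or anti-PD-1, and they enter the estimate of the spread and, as a comparison, the antibody effect without letrozole.

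PD-1, encoded by Pdcd1, is an inhibitory receptor on activated T cells. Its ligands PD-L1 (Cd274) and PD-L2 (Pdcd1lg2) sit on tumour cells and antigen-presenting cells, and binding dampens signalling from the T cell receptor. Antibodies that block PD-1 can restore T cell activity, which is often read in bulk tumour RNA as more T cell and cytotoxic transcripts and as genes induced by interferon gamma, among them chemokines and antigen presentation genes. Letrozole inhibits aromatase, the enzyme that makes oestrogens, and is used against oestrogen receptor-positive breast cancer.

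Values below are normalised counts, that is, reads per transcript divided by a scaling factor of the library, and each gene is represented by its transcript with the most reads. Where 5 values are listed for a group, they follow the order of replicates 1 to 5. Recovered depth ran from 23671965 to 29408257 reads in the letrozole tumours and from 18204604 to 30305964 in the letrozole + anti-PD-1 tumours, with no difference beyond the spread (exact permutation test, two-sided, p = 0.833, where the smallest p possible is 0.00794). Luminal epithelial genes had a mean level of 13.4 to 13.7 on the log2 scale in each of the 10 tumours. Pgr, a classical oestrogen receptor target, lay between 733 and 1725 normalised counts in all 10, against 7763 to 18215 in the 10 sham-operated tumours, so this gene separates the tumours as the letrozole labels do. No transcript reports whether the antibody was given, so those labels have no check here. The labels give no batch, and the tumours' spread did not follow the groups. On the first principal component of the 10 tumours, which held 23.4% of the variance, letrozole + anti-PD-1 replicates 1 and 3 lay at −74.1 and −82.4, while letrozole replicates 4 and 5 and letrozole + anti-PD-1 replicate 2 lay at 52.4, 66.8 and 48.9. Letrozole replicates 1, 4 and 5 and letrozole + anti-PD-1 replicate 2 also carried skeletal muscle transcripts, with a mean log2 level of the muscle genes of 6.74 to 7.62 against 2.76 to 3.82 in the other tumours. Where the median of a gene list turned sign without either set of tumours, the values without them are given.

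No gene passed the test for a difference between the groups. Of 19877 genes with at least 10 normalised counts in at least 5 libraries, limma called 0 (0%) at an adjusted p under 0.05, and the smallest adjusted p was 0.70 (0.0657 to 1 over the limma alternatives that called none). At an unadjusted p under 0.05 there were 628 genes (3.16% of those tested), 317 of them higher (1.59%) and 311 lower (1.56%) with the antibody, where 994 would be a nominal 5%. On average 9497 genes (47.8%) were higher, the median log2 difference was −0.01 and the groups' ranges did not overlap for 108 genes (0.543%), 51 higher and 57 lower. Log2 differences had standard errors with a median of 0.24. For 12229 genes (61.5%), and for 9428 of the 9938 above the median level (94.9%), the 95% interval of the difference lay within 2-fold in either direction. A difference of 2-fold or more was therefore outside the interval for most well-expressed genes, while low genes had wider intervals. The count of 628 depended on single tumours, since it was 379 without letrozole + anti-PD-1 replicate 1, 394 without replicate 3 and 965 without replicate 2 of that group, and 233 without replicates 1 and 3 together.

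**Figure D1:**
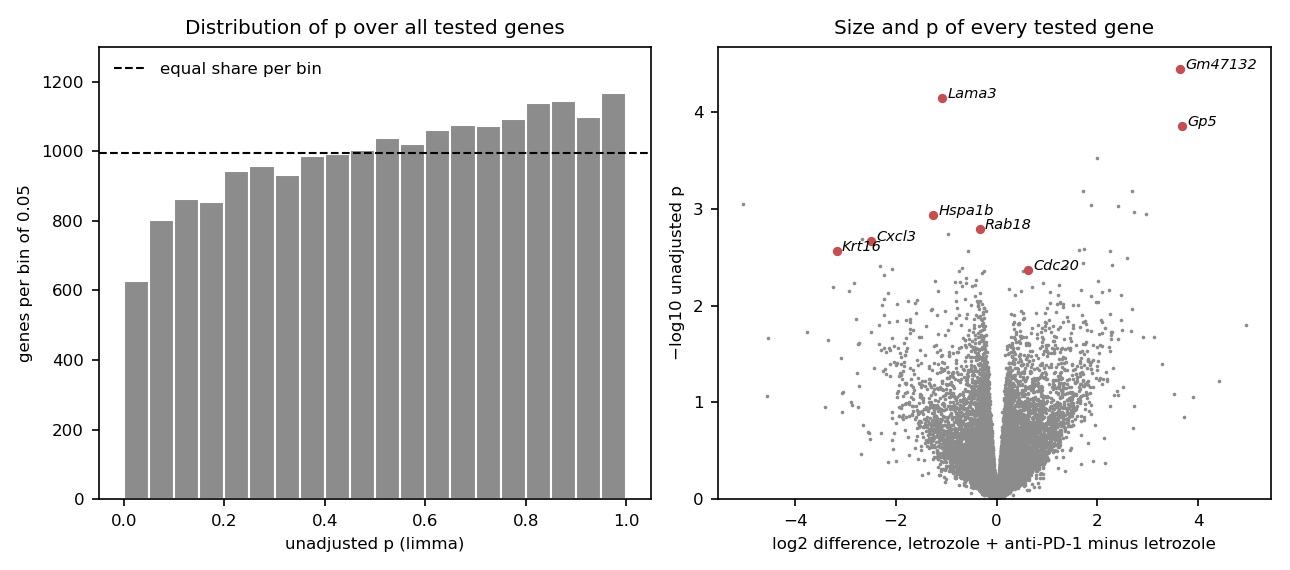
Left, unadjusted p-values of the 19877 tested genes in bins of 0.05, with a dashed line at an equal share per bin; right, log2 difference (letrozole + anti-PD-1 minus letrozole) against −log10 of the unadjusted p for every tested gene. The lowest bin holds 628 genes and lies under the dashed line; some of the genes described in the text are named.

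The count models run on the recovered reads gave 0 calls with edgeR (646 genes at an unadjusted p under 0.05) and 9 with DESeq2 (718), which named Lama3, Krt14, Krt17, Krt16, Krt6b, Krt1, Fam131c, Gp5 and Gm47132. Of these, 6 are laminin and keratin genes of basal or stratified epithelium, described below. Gm47132, a predicted gene with the smallest limma p of all (adjusted p = 0.70), was at 0 in the 5 letrozole tumours and at 16.2, 6.58, 23.2, 5.82 and 13.2 in the letrozole + anti-PD-1 tumours, which against 3 reads over the letrozole group is at least 25.0-fold higher. Gp5, which encodes a platelet membrane glycoprotein, had normalised counts of 4.39, 0, 0, 0 and 1.73 with letrozole and 34.8, 28.0, 6.19, 18.2 and 34.0 with the antibody added (log2 difference 3.68, SE 0.79, limma adjusted p = 0.913). Its ranges did not overlap, at levels of at most 34.8. Fam131c was at 25.6, 0, 0.958, 0 and 6.90 in the letrozole tumours and at 0 in all 5 with the antibody. Against 3 reads over that group, its pooled reads were at least 14.5-fold lower. This bound and that of Gm47132 pool the reads of a group and allow for counting error only, not for the spread among tumours. Most of the 44 reads of Fam131c came from letrozole replicate 1, and replicates 2 and 4 were also at 0. Leaving out single tumours gave limma log2 differences from −2.17 to −0.99. Gm47132, Gp5 and Fam131c fall outside the rule for named genes and were chosen after their values were seen.

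Transcripts of PD-1 itself were few. Pdcd1 (transcript ENSMUST00000027507) had normalised counts of 0, 1.80, 0, 23.3 and 27.6 in the letrozole tumours and 9.27, 12.3, 3.09, 2.91 and 30.2 with the antibody. Letrozole replicates 4 and 5 and letrozole + anti-PD-1 replicate 5 were the highest, and the ranges overlapped (log2 difference 1.03, 95% interval −1.42 to 3.47). In bulk RNA, fewer cells of a type and less RNA per cell cannot be told apart, here and for every cell type below. For the ligand gene Cd274 (ENSMUST00000016640) the values were 119.9, 145, 98.7, 132 and 148 with letrozole and 147, 151, 104, 152 and 143 with the antibody. They were nearly the same in both groups (log2 difference 0.12, 95% interval −0.61 to 0.85), with letrozole + anti-PD-1 replicate 3 and letrozole replicate 3 the lowest. An unnamed gene on the other strand covers 14.1% of the exon bases of Cd274. The second ligand gene, Pdcd1lg2, gave 7 reads over the 5 letrozole and 1 over the 5 letrozole + anti-PD-1 libraries and was not tested.

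Other inhibitory receptors of T cells were also low. Lag3 had normalised counts of 34.4, 26.2, 33.5, 54.1 and 51.8 with letrozole. With the antibody it lay at 58.0, 64.2, 11.6, 9.46 and 10.4. Replicates 3, 4 and 5 of the antibody group were under all letrozole values and replicates 1 and 2 above them, so the groups overlapped (log2 difference −0.81, 95% interval −1.92 to 0.30). Havcr2, which encodes TIM-3, averaged 93.6 ± 33.1 and 86.5 ± 41.2 normalised counts (mean ± SD, n = 5 per group), a log2 difference of −0.16. Ctla4 gave 77 reads over the letrozole group, from replicates 4 and 5 only, and 11 over the antibody group, all from replicate 2. Tigit gave 50 and 38 reads, and both genes were under the level for testing. Of 26 checkpoint receptors and ligands listed, 21 were tested, 9 were higher and 12 lower on average, and the median log2 difference was −0.13, against −0.01 for all tested genes. The sign turned without letrozole + anti-PD-1 replicates 1 and 3 (0.14) and without the 4 muscle-rich libraries (0.10), with 12 of 21 higher in each. Only 1 member had an unadjusted p under 0.05 (against 3.16% of all tested genes). It was Vtcn1, encoding the inhibitory ligand B7-H4, which averaged 277 ± 136 and 150.0 ± 97.8 (log2 difference −1.08, 95% interval −2.14 to −0.02, limma adjusted p = 1). Cd28, a receptor gene of T cells, had the next smallest p, with log2 differences from −2.69 to −1.35 when single tumours were left out.

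**Figure D2:**
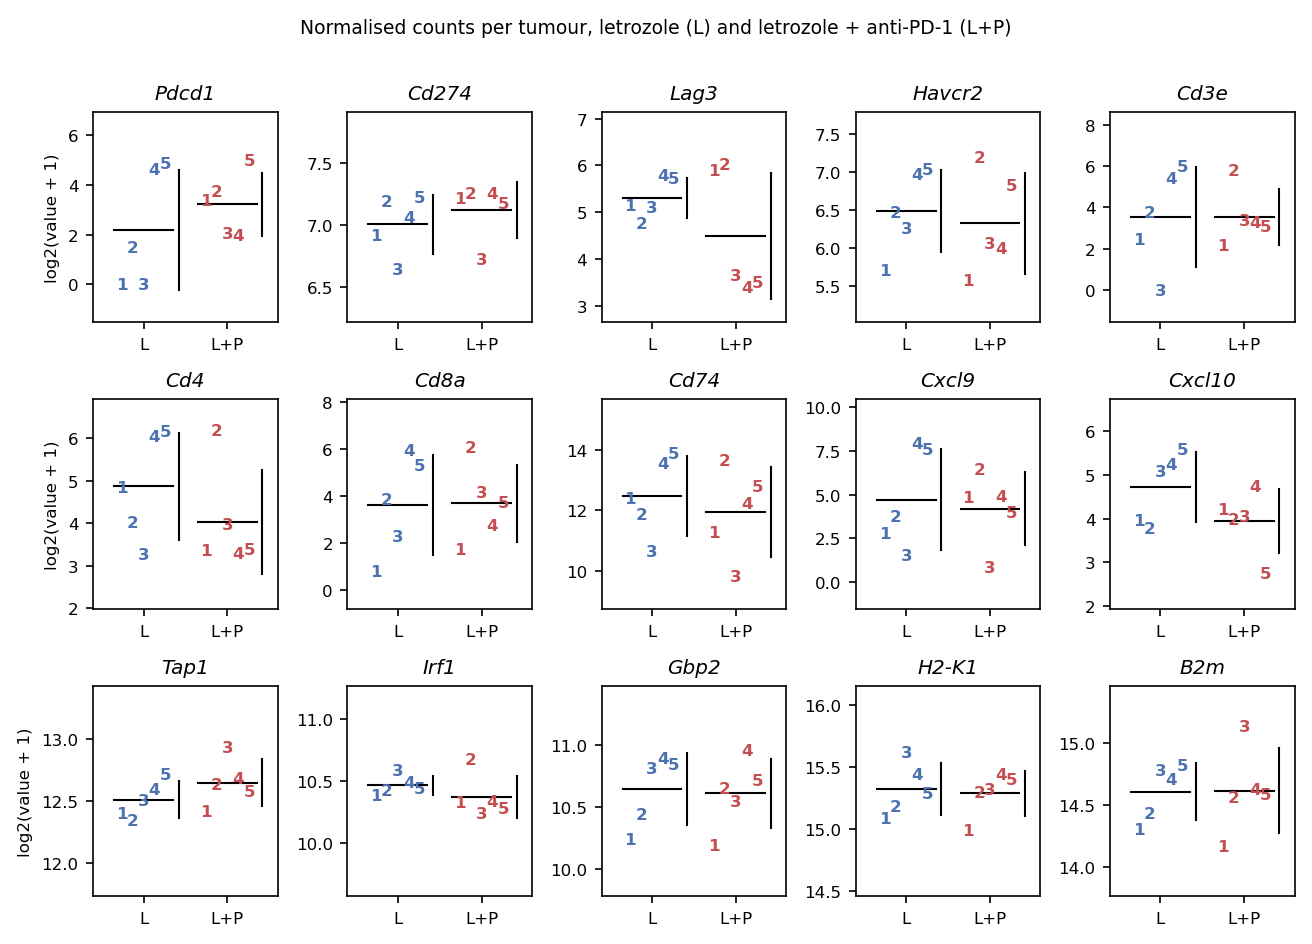
Log2(normalised count + 1) of 15 immune genes in each tumour; numbers are replicate numbers of the letrozole (L, blue) and letrozole + anti-PD-1 (L+P, red) groups, horizontal lines are means and vertical bars mean ± 1 SD. The groups overlap for each of the genes, and Cd3e, Cd4 and Cd8a are highest in letrozole replicates 4 and 5 and letrozole + anti-PD-1 replicate 2.

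T cell transcripts varied among tumours of each group more than between the groups. Cd3e, part of the T cell receptor complex, had normalised counts of 4.39, 12.6, 0, 41.6 and 62.1 with letrozole and 3.48, 54.3, 9.28, 8.73 and 7.55 with the antibody. The highest values were in letrozole replicates 4 and 5 and letrozole + anti-PD-1 replicate 2, and the means on the log2 scale were nearly equal (difference 0.02, 95% interval −2.31 to 2.35). Cd8a, the co-receptor of cytotoxic T cells, was at 0.731, 13.5, 3.83, 60.0 and 38.8 with letrozole and 2.32, 65.8, 17.0, 5.82 and 12.3 with the antibody. The same 3 tumours were highest (log2 difference 0.06, 95% interval −2.36 to 2.47). Cd4, the co-receptor of helper T cells, was at 27.8, 15.3, 8.62, 65.0 and 70.8 with letrozole and 9.27, 71.6, 14.7, 8.73 and 9.44 with the antibody. Its log2 difference was −0.83 (95% interval −2.60 to 0.93), with letrozole + anti-PD-1 replicate 2 far above the others of its group. The intervals of Cd3e and Cd8a hold differences of over 4-fold in either direction, so such differences were not detectable at this depth and spread. The signs for Cd3e and Cd8a turned negative with edgeR, DESeq2 and quantile normalisation, among other settings.

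Of 24 T cell genes, 21 were tested, none had an unadjusted p under 0.05, 6 were higher and 15 lower on average, and the median log2 difference was −0.29. Their mean log2 level was 4.08, 3.82, 3.50, 5.73 and 5.77 in letrozole replicates 1 to 5 and 3.43, 5.86, 3.41, 3.55 and 4.31 in letrozole + anti-PD-1 replicates 1 to 5. Muscle transcripts were high in the 3 tumours with the most T cell transcripts. They were also high in letrozole replicate 1 (mean log2 level 7.44), whose T cell level was 4.08. The part of muscle transcripts in these values was not tested. Without letrozole replicate 5 the median difference of the T cell genes was 0.03, and without letrozole + anti-PD-1 replicate 2 it was −0.97. Without the 4 libraries high in muscle genes it was 0.03, and without letrozole + anti-PD-1 replicates 1 and 3 it was 0.04. Lower members with the smallest p were Bcl11b, a transcription factor of T cell development (log2 difference −1.69, 95% interval −3.51 to 0.12), and Lat, an adaptor of the T cell receptor (−1.26, 95% interval −3.02 to 0.51).

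Effector genes of killer cells were at or near the limit of detection. Gzmb (granzyme B) gave 24 reads over the letrozole and 16 over the letrozole + anti-PD-1 group, Prf1 (perforin) 57 and 38. Ifng, the interferon gamma gene, gave 0 reads in the 5 letrozole tumours and 10 in letrozole + anti-PD-1 replicate 2, the only tumour of its group with any, and 20.6% of its exon bases also belong to another gene on the same strand. Of the 20 cytotoxic and NK cell genes only 8 passed the level for testing. Among them 3 were higher and 5 lower on average, with a median of −0.24, which was −0.05 without letrozole + anti-PD-1 replicates 1 and 3. Ncr1, an NK cell receptor gene, had a log2 difference of −1.07 (95% interval −3.45 to 1.31) and Klrk1, encoding NKG2D, of −0.79 (95% interval −3.03 to 1.44).

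Foxp3, which marks regulatory T cells, gave 247 ± 41.1 and 245 ± 22.7 normalised counts (log2 difference 0.0019, 95% interval −0.36 to 0.36). It stood at 206 in letrozole replicate 3, where Cd3e was at 0 and Cd4 at 8.62. Which cells these reads came from was not tested, so the narrow interval says little about regulatory T cells. Foxp3 shares 19.8% of its exon bases with Ccdc22 and other genes, whose reads cannot be told from its own there without the strand. Tox, a transcription factor of exhausted T cells, was at 33.6, 179, 331, 76.6 and 23.3 with letrozole and 27.8, 74.1, 1.55, 77.1 and 41.5 with the antibody. The highest value was also in letrozole replicate 3, and letrozole + anti-PD-1 replicate 3 was far below the other tumours (log2 difference −1.55, 95% interval −3.56 to 0.47). Nr4a1, an early response gene of receptor signalling, averaged 307 ± 60.5 and 229 ± 40.4 (log2 difference −0.42). Of 11 tested genes of regulatory T cells and exhaustion, 4 were higher, 7 lower, and 0 had an unadjusted p under 0.05. Their median was −0.10 and turned to 0.12 without the muscle-rich libraries.

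Genes that interferon gamma induces did not separate the groups. Cxcl9, a chemokine that draws T cells, had normalised counts of 5.85, 12.6, 1.92, 239 and 193 with letrozole and 27.8, 85.6, 0.773, 29.1 and 15.1 with the antibody. Letrozole replicates 4 and 5 were the highest of the 10 (log2 difference −0.51, 95% interval −3.24 to 2.21). Cxcl10, a related chemokine, averaged 28.6 ± 14.6 and 15.8 ± 7.07, a log2 difference of −0.78. For the transcription factor gene Irf1 the difference was −0.10 (95% interval −0.31 to 0.12) and for the guanylate-binding protein gene Gbp2 −0.03 (−0.41 to 0.34), so that for both a 2-fold difference lay outside the interval. All 28 genes of the interferon gamma list were tested, 8 were higher and 20 lower on average, with a median of −0.22. No member had an unadjusted p under 0.05, and the smallest were Cxcl11, with a log2 difference of −1.40 (95% interval −3.16 to 0.35, 41.7% of exon bases shared with Gm2673), and Gbp5 with −1.05 (95% interval −2.58 to 0.49). Without letrozole + anti-PD-1 replicates 1 and 3, the median was 0.05 and 17 of the 28 were higher, and without the muscle-rich libraries it was 0.01.

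Type I interferon genes gave a median log2 difference of −0.08 over 29 tested members, 9 higher and 20 lower. The direction turned without letrozole + anti-PD-1 replicates 1 and 3 (median 0.08, 17 of 29 higher) and without the muscle-rich libraries (median 0.16, 19 of 29 higher). Ifih1, which encodes the RNA sensor MDA5, was the 1 member with an unadjusted p under 0.05 (against 3.16% of all tested genes). It averaged 2504 ± 279.8 normalised counts with letrozole and 2096 ± 182 with the antibody (log2 difference −0.25, 95% interval −0.51 to −0.00045, limma adjusted p = 1). Ifit2, an antiviral effector gene, was next with a difference of −0.99 (95% interval −2.05 to 0.07).

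MHC class I presentation was measured tightly. H2-K1, a class I heavy chain gene, ranged from 34702 to 50254 normalised counts with letrozole and from 32393 to 44406 with the antibody (log2 difference −0.04, 95% interval −0.32 to 0.25). B2m, the class I light chain, had a difference of 0.01 (−0.36 to 0.38) and Tap1, a peptide transporter subunit, of 0.14 (−0.07 to 0.35). These intervals hold no difference as large as 2-fold. Quantile normalisation turned the sign for H2-K1 and B2m. Of the 20 class I genes, 15 were higher and 5 lower on average by at most 0.19 and 0.16 on the log2 scale, with a median of 0.04, and 0 had an unadjusted p under 0.05. H2-T22, a nonclassical class I gene that shares 32.8% of its exon bases with A930015D03Rik, had the smallest p, at 4721 ± 429.5 and 5374 ± 209.7 normalised counts (log2 difference 0.19, 95% interval −0.01 to 0.39).

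MHC class II genes, which mark antigen-presenting cells, varied much more. Cd74, the invariant chain, had normalised counts of 5378, 3759, 1607, 12038 and 15213 with letrozole and 2461, 12830, 895, 4777 and 7037 with the antibody. The lowest was letrozole + anti-PD-1 replicate 3 and the highest letrozole replicate 5 (log2 difference −0.53, 95% interval −2.38 to 1.32). Of the 10 class II genes, 8 were lower on average, with a median of −0.27. Leaving out letrozole + anti-PD-1 replicate 3 alone turned this to 0.07, leaving out replicates 1 and 3 of that group to 0.46, with 9 of 10 higher, and leaving out the 4 muscle-rich libraries to 0.28. The direction of the class II difference therefore depended on these libraries.

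The myeloid lists gave medians of −0.05 (macrophage, 7 of 20 higher), 0.03 (dendritic cell, 8 of 14 higher) and −0.50 (neutrophil, 1 of 6 higher). The macrophage median turned sign without letrozole + anti-PD-1 replicates 1 and 3, to 0.23, with 17 of 20 higher, and without the muscle-rich libraries to 0.13. The dendritic cell median was 0.15 and the neutrophil median −0.05 without those 2 antibody tumours. Among the members of the 3 lists only Ltf, the neutrophil granule protein lactoferrin, which mammary epithelium also makes, had an unadjusted p under 0.05 (against 3.16% of all tested genes). It was at 76.0, 532, 97.7, 38.3 and 10.4 with letrozole and 4.64, 16.5, 12.4, 56.8 and 38.7 with the antibody. Letrozole replicate 2 was the highest by far (log2 difference −1.85, 95% interval −3.43 to −0.26, limma adjusted p = 1). For B cells the median was −0.51 (6 tested members) and for plasma cells −0.26 (6). Without the same 2 tumours these were −0.13 and 0.48. Igha, the IgA heavy chain, ranged from 57.0 to 558 with letrozole and from 1.55 to 523 with the antibody.

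Among 20 tested chemokine genes 5 were higher and 15 lower on average, with a median of −0.25, and 3 had an unadjusted p under 0.05, all lower (against 1.56% of all tested genes). The direction turned without letrozole + anti-PD-1 replicates 1 and 3, where the median was 0.18 and 13 of 20 were higher. In that fit 1 had an unadjusted p under 0.05, against 233 of all 19877 tested genes. Cxcl3, a ligand of the neutrophil receptor CXCR2, was at 16.8, 10.8, 7.66, 13.3 and 5.18 with letrozole and 0, 0, 10.8, 1.46 and 0 with the antibody. Only letrozole + anti-PD-1 replicate 3 reached the letrozole range (log2 difference −2.49, 95% interval −3.96 to −1.01, limma adjusted p = 1), and values this low rest on few reads. Cxcl15, a chemokine of mucosal epithelia, was at 266, 313, 303, 377 and 234 with letrozole and 126, 297, 9.28, 132 and 169 with the antibody. Its lowest value was in letrozole + anti-PD-1 replicate 3 and replicate 2 of that group lay within the letrozole range (log2 difference −1.60, 95% interval −2.81 to −0.39). Cxcl5 averaged 7.17 ± 8.41 and 1.83 ± 3.60 (log2 difference −1.72, 95% interval −3.11 to −0.33). Il4 and Il7 had the smallest p of 15 tested T cell cytokine and receptor genes, with log2 differences of 0.59 (95% interval −0.22 to 1.39) and 1.19 (95% interval −0.48 to 2.87).

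**Figure D3:**
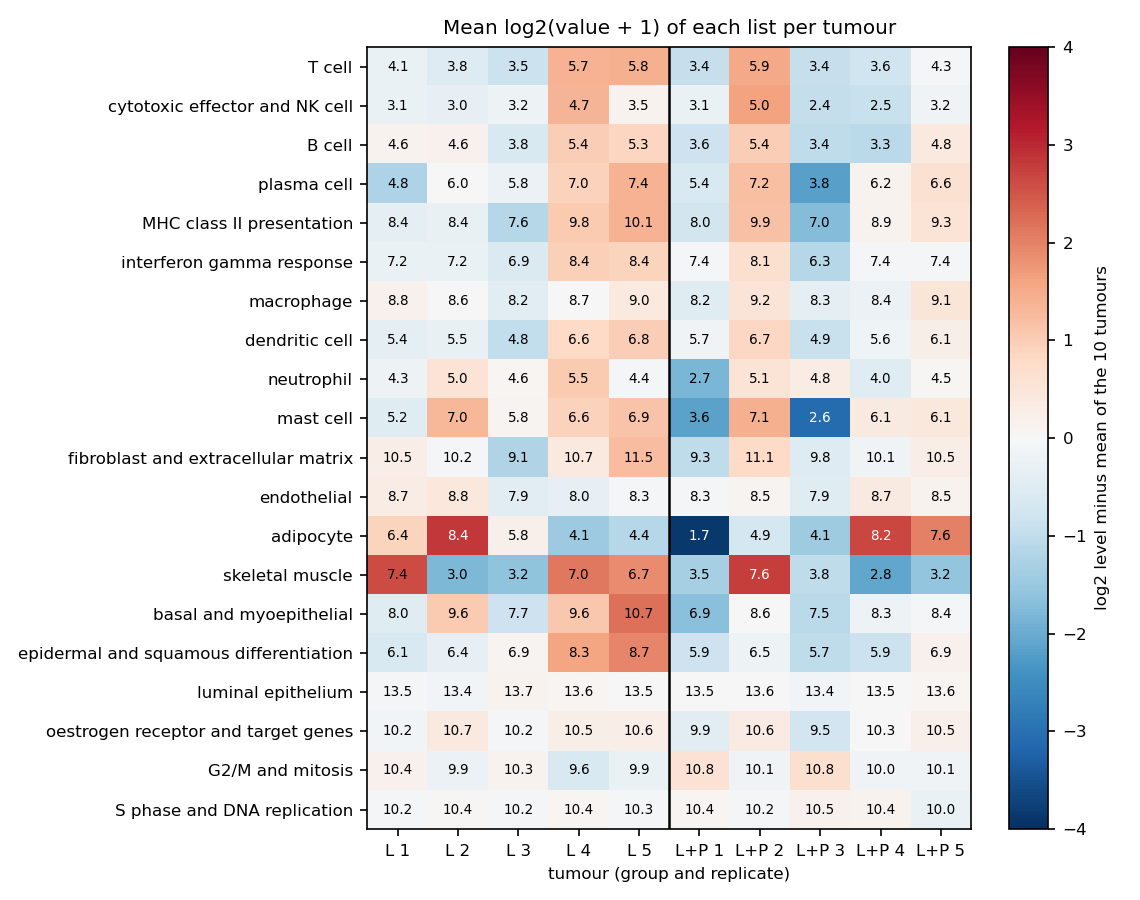
Mean log2(normalised count + 1) over the tested genes of 20 lists in each of the 10 tumours (L, letrozole; L+P, letrozole + anti-PD-1); numbers are the means and colour is the difference from the mean of the 10 tumours. Columns of the same group differ from each other, with muscle genes at 6.74 to 7.62 in 4 tumours and mast cell genes at 3.56 and 2.62 in letrozole + anti-PD-1 replicates 1 and 3.

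No oestrogen receptor or target gene passed adjustment. Esr1, the oestrogen receptor gene, had normalised counts of 6437, 6014, 6217, 7407 and 6066 with letrozole and 4100.1, 5462, 5798, 6708 and 5348 with the antibody. The values overlapped, with letrozole + anti-PD-1 replicate 1 lowest (log2 difference −0.24, 95% interval −0.54 to 0.05). Pgr averaged 1370.0 ± 361 and 1235 ± 346 (log2 difference −0.15, 95% interval −0.65 to 0.35). Of 17 tested oestrogen receptor and target genes, 6 were higher and 11 lower, and their median was −0.15. It turned to 0.07 without letrozole + anti-PD-1 replicates 1 and 3, with 12 of 17 higher. Cxcl15, described among the chemokines, also stands in this list and was its 1 member with an unadjusted p under 0.05 (against 3.16% of all tested genes). Igfbp5, which encodes an insulin-like growth factor binding protein, spread widely, from 2519 to 14279.9 with letrozole and from 383 to 9787 with the antibody.

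Luminal epithelial genes had a median log2 difference of 0.0035 over 15 tested members, and of −0.01 without letrozole + anti-PD-1 replicates 1 and 3. Krt18, a luminal keratin, averaged 26173 ± 2618 and 30945 ± 2942 (log2 difference 0.24, 95% interval −0.02 to 0.50). Cdh1, which encodes E-cadherin, was at 23200, 28426, 38847, 27666 and 25538 with letrozole and 13946, 29506, 8359, 23429 and 25316 with the antibody. Letrozole + anti-PD-1 replicates 1 and 3 were the lowest of the 10 tumours and the other 3 of that group lay within the letrozole range (log2 difference −0.63, 95% interval −1.16 to −0.10, limma adjusted p = 1). Without those 2 tumours the difference was −0.12.

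Genes of basal and stratified epithelium made up most of the calls by DESeq2. Lama3 (ENSMUST00000092070), encoding the alpha-3 chain of laminin-332 that anchors basal epithelial cells to the basement membrane, had normalised counts of 257, 262, 340.1, 309 and 414 with letrozole. With the antibody it lay at 118, 141, 114, 154 and 234. The ranges did not overlap, which held for 0.543% of all tested genes and for 1 of the 16 basal genes. The mean was 2.11-fold lower with the antibody (log2 difference −1.08, SE 0.22, 95% interval −1.53 to −0.63), with a limma adjusted p of 0.703 and a DESeq2 adjusted p of 0.0142. Over the alternatives its adjusted p ranged from that value to 1, and edgeR gave 0.715. In the sham-operated mice its antibody difference was −0.15. Without letrozole + anti-PD-1 replicates 1 and 3 the difference was −0.86.

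The keratins were high in some letrozole tumours rather than in the group as a whole. Krt14, which forms the filament of basal cells with Krt5, was at 10.97, 536, 13.4, 2201 and 4939 with letrozole and 4.64, 60.9, 9.28, 53.8 and 47.2 with the antibody. Letrozole replicates 2, 4 and 5 lay above all others, and replicates 1 and 3 within the range of the antibody group (log2 difference −3.34, 95% interval −6.16 to −0.52). Krt17, a keratin of stressed and basal epithelium, was at 15.4, 232, 17.2, 825 and 647 with letrozole and 4.64, 45.3, 11.6, 10.9 and 11.3 with the antibody. The same 3 letrozole tumours were high (log2 difference −3.25, 95% interval −5.48 to −1.02). For Krt5 the difference was −3.09 (95% interval −5.93 to −0.25) and for Trp63, the p63 transcription factor of basal cells, −2.72 (95% interval −5.06 to −0.39). All 16 basal and myoepithelial genes were tested, 3 were higher and 13 lower on average, 5 of the lower ones had an unadjusted p under 0.05 (against 1.56% of all tested genes), and the median was −0.91. Without letrozole + anti-PD-1 replicates 1 and 3 the median was −0.26. Then 2 members had an unadjusted p under 0.05, against 233 of all 19877 tested genes. Leaving out single tumours gave medians from −1.13 to −0.45.

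Keratins of the upper layers of stratified epithelium were high in letrozole replicates 4 and 5. Krt16, induced in activated keratinocytes, had normalised counts of 22.7, 31.6, 30.7, 1282 and 142 with letrozole and 3.48, 3.29, 24.0, 10.2 and 13.2 with the antibody. Letrozole replicate 4 was highest, and replicate 1 lay within the range of the antibody group (log2 difference −3.17, 95% interval −5.10 to −1.23, limma adjusted p = 1). Krt1, a keratin of differentiating epidermis, was at 15.4, 1.80, 1.92, 286 and 6220.3 with letrozole and 0, 3.29, 4.64, 1.46 and 7.55 with the antibody. Its letrozole mean of 1305 ± 2750.4 rests on replicate 5 (log2 difference −3.77, 95% interval −6.85 to −0.69), and without the 4 muscle-rich libraries, 2 of which are the letrozole tumours highest in Krt1, the difference was 0.21. Krt6b was at 41.7, 47.8, 71.8, 940.2 and 425 with letrozole and 26.7, 71.6, 28.6, 27.7 and 91.5 with the antibody (log2 difference −1.72, 95% interval −3.06 to −0.38). Pkp1, a desmosome gene, ranged from 69.0 to 1473 with letrozole and from 6.96 to 167 with the antibody (log2 difference −2.23, 95% interval −3.83 to −0.64). Of 17 tested epidermal and squamous differentiation genes, 13 were lower on average, 6 of them with an unadjusted p under 0.05 (against 1.56% of all tested genes), and the median was −0.81. The mean level of these genes was 6.13, 6.40, 6.85, 8.30 and 8.70 in letrozole replicates 1 to 5 and 5.89, 6.53, 5.72, 5.87 and 6.90 in letrozole + anti-PD-1 replicates 1 to 5. Letrozole replicates 4 and 5 were also among the tumours rich in muscle and T cell transcripts. Without the 4 muscle-rich libraries the median was −0.55, and without letrozole + anti-PD-1 replicates 1 and 3 it was −0.31. In the latter fit 2 members had an unadjusted p under 0.05, against 233 of all 19877 tested genes.

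**Figure D4:**
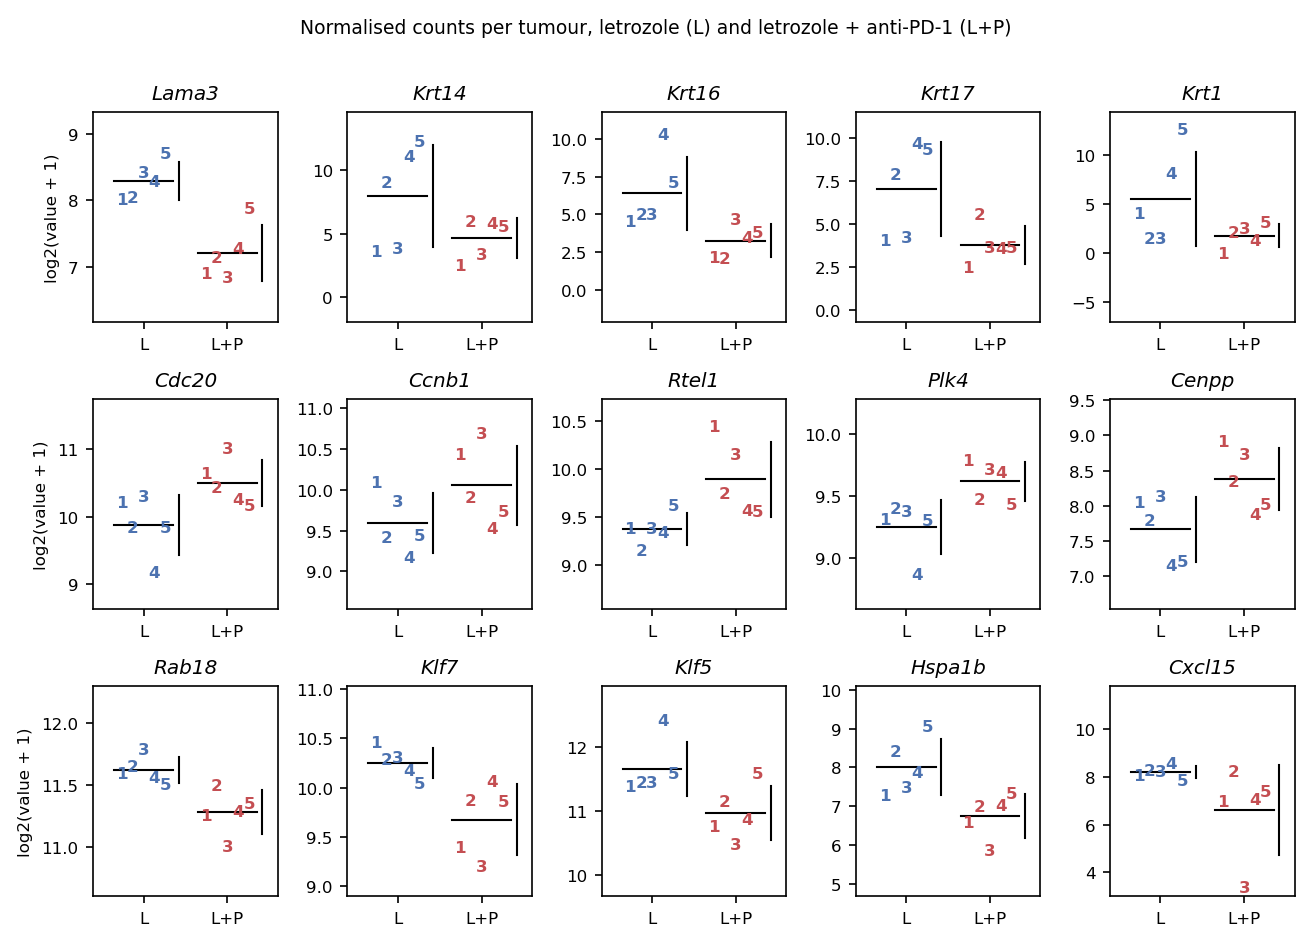
Log2(normalised count + 1) of 15 genes with small unadjusted p-values or DESeq2 calls in each tumour; numbers are replicate numbers of the letrozole (L, blue) and letrozole + anti-PD-1 (L+P, red) groups, horizontal lines are means and vertical bars mean ± 1 SD. Lama3, Plk4 and Rab18 do not overlap between the groups, while the keratins are high in letrozole replicates 4 and 5 and Krt14 and Krt17 also in replicate 2.

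Genes of mitosis were higher on average in the antibody group, at differences that shrank without 2 of its tumours. The list of G2/M and mitosis held 24 genes, all of them tested and all 24 higher, against 47.8% of all tested genes, with a median log2 difference of 0.34. No member passed adjustment, and 5 had an unadjusted p under 0.05 and were higher (against 1.59% of all tested genes), namely Cdc20, Ccnb1, Cenpa, Ccna2 and Ttk. Cdc20 (ENSMUST00000006565), an activator of the anaphase-promoting complex, had normalised counts of 1187, 920.2, 1266, 576 and 916 with letrozole. With the antibody it lay at 1589, 1379.8, 2063, 1217 and 1143. Letrozole + anti-PD-1 replicate 3 was highest and letrozole replicate 4 lowest, with overlap (1.54-fold higher, log2 difference 0.62, 95% interval 0.22 to 1.02, limma adjusted p = 1). Ccnb1, which encodes cyclin B1, was at 1084, 684, 923, 574 and 696 with letrozole and 1379, 954, 1646, 733 and 850.1 with the antibody. Letrozole + anti-PD-1 replicates 1 and 3 were highest and replicates 2, 4 and 5 of that group lay within the letrozole range (log2 difference 0.46, 95% interval 0.04 to 0.88). Mki67, the proliferation marker Ki-67, was at 6752, 4616, 4865, 3586 and 4118 with letrozole and 7794, 4129, 11274, 5119 and 5371 with the antibody (log2 difference 0.43, 95% interval −0.06 to 0.92). Differences for Cenpa, the centromeric histone, and Ttk, a kinase of the spindle checkpoint, were 0.54 and 0.43.

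The mean level of the 24 mitosis genes was 10.37, 9.95, 10.32, 9.56 and 9.91 in letrozole replicates 1 to 5 and 10.77, 10.05, 10.83, 10.03 and 10.05 in letrozole + anti-PD-1 replicates 1 to 5. Replicates 1 and 3 of the antibody group were the highest of the 10, and its other tumours lay within the letrozole range. Without these 2 tumours the median difference was 0.02 and 16 of 24 were higher. Then 0 had an unadjusted p under 0.05, against 233 of all 19877 tested genes. Since they were the highest for the list, leaving them out was bound to lower the group mean. Leaving out single tumours gave medians from 0.21 to 0.44. Without the 4 muscle-rich libraries the median was 0.35 and 21 of 24 were higher. Letrozole + anti-PD-1 replicates 1 and 3 also had the lowest mast cell marker levels (3.56 and 2.62, against 5.24 to 7.12 in the others). Their class II levels were 8.02 and 7.01, against 7.61 to 10.13 in the others, so these overlapped. What part the make-up of these tumours had in the mitosis values was not tested. Of the genes of S phase 11 of 23 were higher, with a median of −0.01, and of 0.05 without the muscle-rich libraries. Mcm4, a helicase subunit, had a log2 difference of −0.22 (95% interval −0.47 to 0.02) and Rfc3, a clamp loader subunit, of 0.30 (95% interval −0.03 to 0.63).

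Mitosis genes share promoter elements that are known to tie their transcription to G2, so the promoters of 4 members with small p-values are shown. They are the 250 bases before the annotated start from RefSeq on GRCm38.p6, written 5′ to 3′ on the gene's strand, with CCAAT or its reverse complement ATTGG and TTTGAA or its reverse complement TTCAAA in capitals. TTTGAA is the core of the cell cycle homology region. Cdc20 lies at chr4:118437344-118437593 (minus strand), Ccnb1 at chr13:100786487-100786736 (minus), Cenpa at chr5:30666636-30666885 (plus) and Ttk at chr9:83834439-83834688 (plus).
Cdc20: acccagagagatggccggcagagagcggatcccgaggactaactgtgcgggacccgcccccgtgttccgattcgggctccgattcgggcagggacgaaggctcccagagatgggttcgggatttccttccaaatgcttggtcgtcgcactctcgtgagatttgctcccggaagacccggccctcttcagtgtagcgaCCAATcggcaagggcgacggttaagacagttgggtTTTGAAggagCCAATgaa
Ccnb1: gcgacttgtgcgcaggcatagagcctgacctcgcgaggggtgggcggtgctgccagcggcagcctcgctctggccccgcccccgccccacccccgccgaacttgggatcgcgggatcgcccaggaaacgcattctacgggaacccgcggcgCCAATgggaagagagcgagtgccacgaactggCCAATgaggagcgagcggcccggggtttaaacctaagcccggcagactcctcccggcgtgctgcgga
Cenpa: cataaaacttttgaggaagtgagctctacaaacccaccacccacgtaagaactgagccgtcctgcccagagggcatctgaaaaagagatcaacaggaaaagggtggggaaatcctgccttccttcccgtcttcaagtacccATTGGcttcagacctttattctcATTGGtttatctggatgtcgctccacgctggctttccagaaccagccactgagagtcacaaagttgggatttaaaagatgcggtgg
Ttk: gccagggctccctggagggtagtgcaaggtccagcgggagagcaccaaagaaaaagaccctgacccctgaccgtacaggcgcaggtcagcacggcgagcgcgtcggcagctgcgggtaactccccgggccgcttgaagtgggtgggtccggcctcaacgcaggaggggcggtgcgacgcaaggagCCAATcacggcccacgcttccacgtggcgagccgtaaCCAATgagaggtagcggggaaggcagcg
CCAAT was found 2 times in each of the 4, on either strand, and TTTGAA 1 time, in Cdc20. Over the list, 19 members had a RefSeq promoter, of which 17 (89.5%) held CCAAT and 7 (36.8%) held TTTGAA, against 37.5% and 18.3% of 27025 genes. In these counts a gene with several annotated starts holds a motif if any of its promoters does, while each printed sequence is a single promoter. Ccna2 was not among the 19 and is not shown. The 2 motifs did not overlap in the printed sequences, and a match describes the letters only.

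Stromal and other cell types varied with single tumours. Mast cell genes had a median log2 difference of −1.19, with 0 of 10 tested members higher. Hdc, the enzyme that makes histamine, was at 7.31, 46.9, 17.2, 46.6 and 70.8 with letrozole and 0, 16.5, 3.09, 17.5 and 20.8 with the antibody. Letrozole + anti-PD-1 replicates 1 and 3 were the lowest of all (log2 difference −1.95, 95% interval −3.67 to −0.24, limma adjusted p = 1). Cma1, the mast cell chymase, was at 73.1, 190.4, 117, 156 and 166 with letrozole and 13.9, 234, 6.19, 62.6 and 83.0 with the antibody (log2 difference −1.67, 95% interval −3.31 to −0.03), with the same 2 tumours lowest. Without them the median of the mast cell genes was 0.06 and 6 of 10 were higher. These 2 tumours were the lowest for the list, so leaving them out was bound to raise the group mean. Without the 4 muscle-rich libraries the median was −2.01 and 0 of 10 were higher.

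Skeletal muscle genes were lower on average in all 18 tested members, with a median of −0.90, and 3 letrozole tumours and 1 antibody tumour carried most of these transcripts. Myl1, a fast muscle myosin light chain, was at 67.3, 3.61, 4.79, 79.9 and 50.1 with letrozole and 0, 74.1, 0, 1.46 and 1.89 with the antibody. Letrozole replicates 1, 4 and 5 and letrozole + anti-PD-1 replicate 2 held nearly all of its counts (log2 difference −2.76, 95% interval −5.14 to −0.38). Actn3, an actinin of fast fibres, had a difference of −2.21 (95% interval −4.38 to −0.05). The 4 libraries were set apart by these same genes, so the median without them, 0.35, is no check on the difference.

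Fibroblast and matrix genes were lower on average in 19 of 20 members, with a median of −0.22 and no unadjusted p under 0.05. Their mean level was 10.39 ± 0.88 with letrozole and 10.15 ± 0.69 with the antibody (mean ± SD over 5 tumours, log2 scale). Dcn, the matrix proteoglycan decorin, had a difference of −0.51 (95% interval −1.95 to 0.92) and Postn, periostin, of −0.39 (−1.94 to 1.16). Without letrozole + anti-PD-1 replicates 1 and 3 the list median was 0.10 and without the muscle-rich libraries 0.33, and without letrozole replicate 5 it was 0.04, so its sign depended on which tumours entered. Adipocyte genes spanned list means of 1.69 to 8.37 within the 10 tumours, and their median went from −0.28 to 1.23 without those 2 tumours and to −1.97 without the muscle-rich ones.

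Endothelial genes had a median of −0.0049 over 19 members, 9 of them higher, with a sign that turned under quantile normalisation. The median was 0.15 without letrozole + anti-PD-1 replicates 1 and 3, with 17 of 19 higher, and 0.01 without the muscle-rich libraries. Angpt2, the angiopoietin that destabilises vessels, was at 275, 188, 94.8, 114 and 177 with letrozole and 313, 204, 277, 237 and 216 with the antibody. The groups overlapped (log2 difference 0.64, 95% interval 0.09 to 1.18, limma adjusted p = 1). Sox17, a transcription factor of arterial endothelium, was at 1053, 1401, 1264, 1387 and 1438 with letrozole and 371, 1021, 169, 1682 and 1181 with the antibody. Here letrozole + anti-PD-1 replicates 1 and 3 were the lowest (log2 difference −0.97, 95% interval −1.94 to −0.01), and without them the difference was −0.04.

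**Figure D5:**
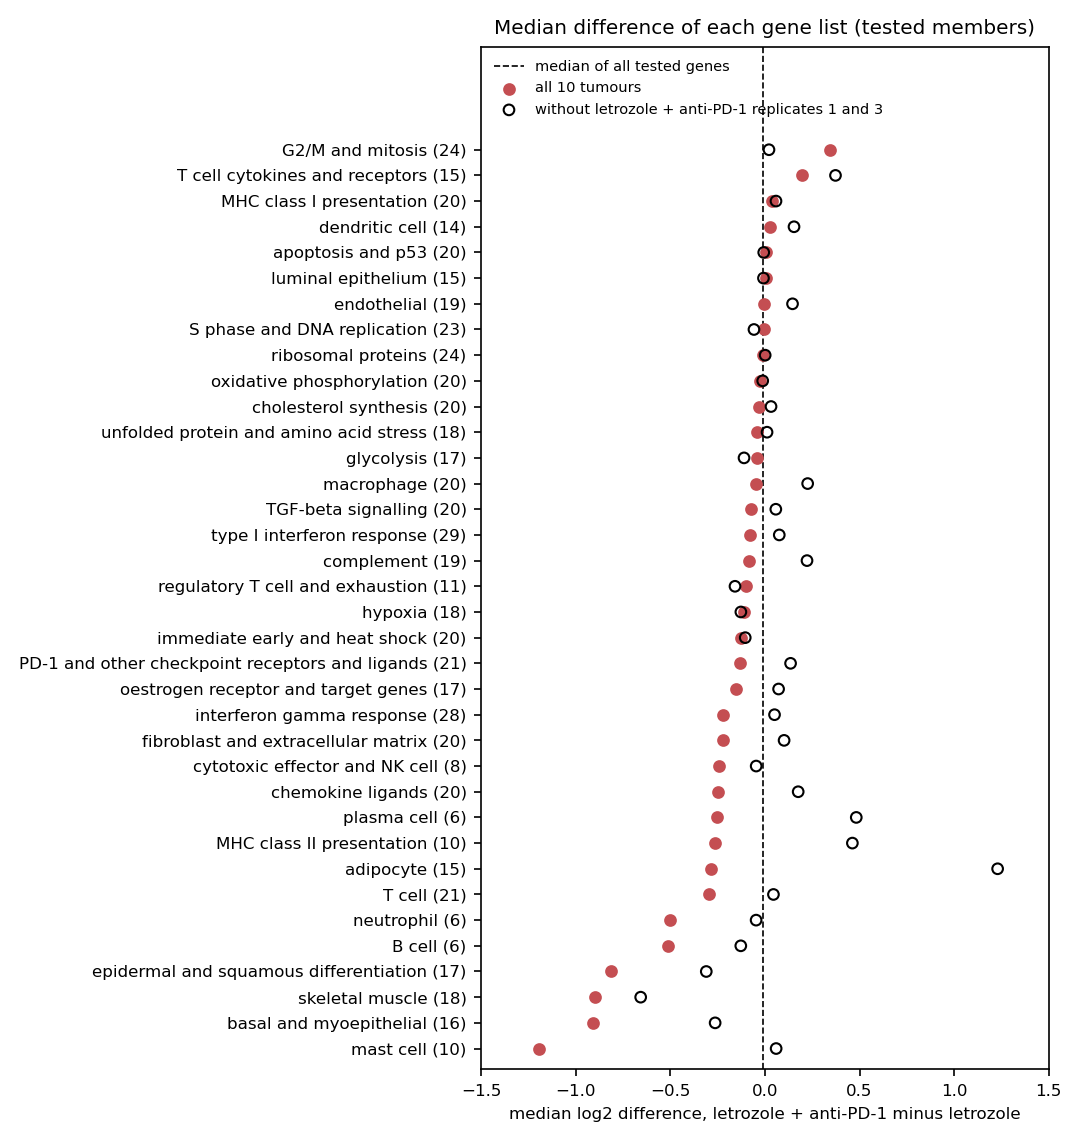
Median log2 difference (letrozole + anti-PD-1 minus letrozole) over the tested genes of each of 36 lists, with the number of tested genes in brackets; red points use all 10 tumours, open circles leave out letrozole + anti-PD-1 replicates 1 and 3, and the dashed line is the median of all tested genes. Mitosis lies highest at 0.34 and mast cell lowest at −1.19 with all tumours, and both lie near the dashed line, at 0.02 and 0.06, without the 2 tumours.

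Among genes above the median level, the 10 with the smallest p in each direction mostly had small differences. Rab18, a small GTPase of lipid droplets, was at 3095, 3220.0, 3539.8, 3033 and 2906 normalised counts with letrozole and 2448, 2899.5, 2060.5, 2498 and 2620.2 with the antibody. The ranges just failed to meet (1.27-fold lower, log2 difference −0.34, 95% interval −0.53 to −0.15, limma adjusted p = 1). Klf7 and Klf5, 2 Krüppel-like transcription factors, came next. Klf7 had values of 1405, 1243, 1266, 1156 and 1053 with letrozole and 670.0, 932, 586, 1065 and 928 with the antibody. Its log2 difference was −0.58 (95% interval −0.93 to −0.23), with 41.8% of its exon bases shared with the predicted genes Gm13748 and Gm26649. Klf5 was at 2665, 2789.6, 2786, 5418 and 3080.4 with letrozole and 1733, 2254, 1419, 1859 and 3059 with the antibody. Letrozole replicate 4 was far above the rest (log2 difference −0.69, 95% interval −1.14 to −0.25). The groups also did not overlap for Pgpep1, a peptidase gene (−0.24), Cnot8, a subunit of the mRNA deadenylase (−0.28), and Adcy9, an adenylyl cyclase (−0.41). Non-overlap held for 0.543% of all tested genes. These genes, Rab18 and Plk4 (below) were chosen by small p, which favours ranges that do not overlap. Itprip, the ceramide synthase gene Cers4, the endosome recycling gene Rab11fip1 and the actin nucleator gene Cobl completed the 10 lower genes, with log2 differences of −0.61, −0.82, −0.42 and −0.68.

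Of the 10 higher genes, Rtel1, a helicase that protects telomeres, was at 666, 568, 668, 647 and 785 with letrozole and 1392, 857, 1139, 758 and 750.1 with the antibody. Letrozole + anti-PD-1 replicates 1 and 3 were highest, and the ranges overlapped by a single letrozole tumour (log2 difference 0.52, 95% interval 0.18 to 0.85). Plk4, the kinase that starts centriole duplication, was at 632, 676, 661, 466 and 632 with letrozole and 879.8, 708, 841, 823 and 689.7 with the antibody. Every antibody tumour lay above every letrozole tumour (log2 difference 0.37, 95% interval 0.11 to 0.63, limma adjusted p = 1). Cenpp, a centromere protein gene that shares 27.5% of its exon bases with Ippk, had a difference of 0.71 (95% interval 0.22 to 1.19) and Traip, a ubiquitin ligase of replication stress, of 0.49 (95% interval 0.15 to 0.83). The others were Cdc20, described above, Msto1 (0.24, with 11.5% of its exon bases shared), the long noncoding RNA Lncpint (0.52), Fam219b (0.34), the mRNA 3′ end processing gene Cpsf4 (0.34) and Gas2 (0.45). Under the alternatives run, none of these 20 genes was called, and each kept the sign of its difference.

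Among all list members, a stress gene had the smallest p after Lama3. Hspa1b, an inducible HSP70 gene, was at 154, 341, 179, 234 and 526 with letrozole and 95.1, 128, 57.2, 129 and 160.4 with the antibody. Only the highest antibody tumour reached the lowest letrozole tumour (2.39-fold lower, log2 difference −1.26, 95% interval −1.95 to −0.56, limma adjusted p = 1). Hspa1a, its near-identical copy whose reads cannot be cleanly separated from it, was at 19.7, 44.2, 29.7, 26.6 and 97.5 with letrozole and 0, 4.94, 10.8, 23.3 and 24.5 with the antibody (log2 difference −2.16, 95% interval −3.68 to −0.65). Of the 20 immediate early and heat shock genes, 15 were lower on average, with a median of −0.13. Within the hypoxia list, Hif1a, the oxygen-regulated transcription factor, 10.1% of whose exon bases overlap Gm15283 and Gm49321, had ranges of 6709 to 8840 with letrozole and 6189 to 6574 with the antibody, which did not overlap (log2 difference −0.21, 95% interval −0.46 to 0.04). Over the 36 lists, Lama3 and Hif1a were the 2 of 615 tested members whose groups did not overlap (0.325%), against 0.543% of all tested genes.

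Housekeeping and metabolic lists lay close to the median of all genes. Ribosomal proteins stood at a median of −0.01 (10 of 24 higher), oxidative phosphorylation −0.03 (6 of 20), glycolysis −0.04 (4 of 17), cholesterol synthesis −0.03 (7 of 20), TGF-beta signalling −0.07 (6 of 20), and apoptosis and p53 0.01 (11 of 20). The signs for the ribosomal protein, oxidative phosphorylation and S phase genes turned under quantile normalisation. The sign turned without letrozole + anti-PD-1 replicates 1 and 3 for ribosomal proteins (0.001), cholesterol synthesis (0.03), TGF-beta signalling (0.06), and apoptosis and p53 (−0.01). Without the muscle-rich libraries it turned for cholesterol synthesis (0.16), TGF-beta signalling (0.11), and apoptosis and p53 (−0.02). Unfolded protein and amino acid stress genes had a median of −0.04 (6 of 18 higher), hypoxia genes −0.11 (3 of 18), complement genes −0.09 (5 of 19) and T cell cytokines and receptors 0.19 (8 of 15). Without those 2 antibody tumours the complement median turned to 0.22, with 15 of 19 higher, and without letrozole + anti-PD-1 replicate 1 alone to 0.11. Unfolded protein and amino acid stress genes turned to 0.01, and T cell cytokines and receptors went to 0.37. Among the housekeeping, metabolic and TGF-beta members the smallest p was that of Smad4, a signal transducer of TGF-beta (log2 difference −0.26, 95% interval −0.54 to 0.02), with its lowest value, 1521, in letrozole + anti-PD-1 replicate 3.

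The antibody effect was then set beside that in sham-operated mice, which shares no tumour with it. There limma also called 0 genes (edgeR 0, DESeq2 5), with 541 at an unadjusted p under 0.05 (2.72%). This count also depended on single tumours. It was 437 without anti-PD-1 replicate 1, 1001 without vehicle replicate 3 and 1087 without anti-PD-1 replicate 5. Anti-PD-1 replicate 1 had 12495788 reads, 12.9% of them in its 10 most abundant genes, against 5.96% to 7.75% in the others of its group. Across all tested genes the 2 antibody effects had a Pearson r of −0.0014 and a Spearman rho of 0.045, given as a description, since genes are not independent replicates. The test of the difference between the 2 effects called 0 genes (edgeR 0, DESeq2 4), with 393 at an unadjusted p under 0.05 (1.98%) and a smallest adjusted p of 1.00. Nothing is therefore shown to be particular to the letrozole-treated mice. Among genes with a more positive effect in the letrozole-treated mice, those with the smallest p are named first. For Cdc20 the antibody difference was 0.62 with letrozole (0.40 without letrozole + anti-PD-1 replicates 1 and 3) and −0.28 in sham-operated mice (difference of effects 0.90, 95% interval 0.33 to 1.47), and for Sgo1, a guardian of sister chromatid cohesion, 0.45 and −0.33 (0.78, 95% interval 0.28 to 1.28). Plk4 had a difference of effects of 0.56 (95% interval 0.19 to 0.92), Fam219b 0.58 (95% interval 0.21 to 0.94) and Dcdc2b 0.64 (95% interval 0.19 to 1.10). In the other direction stood Pex7, the import receptor for peroxisomal enzymes (−0.37 with letrozole and 0.44 in sham-operated mice, 95% interval of the difference −1.33 to −0.29), Vti1a (−0.39, −0.65 to −0.13), Klf5 (−0.92, −1.54 to −0.29), Sde2 (−0.49, −0.87 to −0.11) and Prdm2 (−0.37, −0.65 to −0.08). The mitosis list, with all 24 members higher in the letrozole-treated mice (16 without letrozole + anti-PD-1 replicates 1 and 3), had 1 of 24 higher in the sham-operated mice (median −0.12). The mast cell list had 0 of 10 higher in the letrozole-treated mice (6 of 10 without those 2 tumours) and 9 of 10 in the sham-operated mice. The differences between these counts were not tested.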

How the data were processed

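RNA-seq of mammary tumours was used, with 5 tumours per group in 4 groups (20 libraries), called biological replicates in the labels. The deposited table holds the authors' signal values per Ensembl transcript, that is, read counts scaled by one factor for each library. The submitters' processing notes name STAR 2.7.10a, DESeq2, GRCm39 and mm39. Neither the counter nor the strand setting is given in the labels used here.

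Every value came back as a whole number of reads (100% within 0.001). Even counts made up 57.9% to 69.6% of the counts from 1 to 20, so counting errors may be wider than single reads give. GENCODE vM21 (GRCm38) named 118889 of 127442 transcripts (93.3%). For each of 38996 genes the transcript with the most reads was kept, so other isoforms do not enter its value, and shares of exon bases with other genes come from the same annotation.

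The 19877 genes with at least 10 normalised counts in at least 5 libraries were tested with limma 3.58.1 (trend) on log2(value + 1), with 4 group means, R 4.3.3 and Benjamini-Hochberg adjustment at 0.05. Fold changes are on that scale, and for low genes they can be smaller or larger than the ratio of mean counts. Pdcd1, for example, averaged 10.5 and 11.6 normalised counts at a log2 difference of 1.03. Alternatives were the count models DESeq2 1.42.0 and edgeR 4.0.16 run on the recovered reads, other pseudocounts (0.5 and 5), filters, scalings and weights, sums over transcripts, a muscle covariate, the replicate number as a block, and left-out libraries. Each of limma, edgeR and DESeq2 was tested on simulated counts with known changes, where DESeq2 made more false calls than the other two. The simulation gave every gene the same spread beyond counting noise and changed only genes above the median level. It held no outlying tumours, so it cannot tell which of the DESeq2 calls in these data are false. Leaving out letrozole + anti-PD-1 replicates 1 and 3 together was chosen after seeing the data. The members and the 36 gene lists were chosen with earlier results of these data known. Named genes are a fixed panel of 26 (1 of them is not reported here), the 10 genes per direction with the smallest p above the median level (predicted genes left out), the 2 members of each list with the smallest p, and 5 genes per direction for the difference of effects. Other genes named, among them the members of the lists with an unadjusted p under 0.05, were chosen after their values were seen. Mice are the replicates as labelled, and nothing says that equal replicate numbers pair them.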

Additional observations from a re-analysis of the deposited data

Results flagged for a closer look

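On the log2(value + 1) scale, 316 groups of 5 values (named genes and list means) were examined. Of these, 19 had a highest or lowest tumour whose gap to the next exceeded 0.71 of the group's range. Chance gives about 1 in 20, or 15.8, so their number is near that. No cause was tested for any of them.

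Letrozole + anti-PD-1 replicate 3 was the lowest of its group for 5 values. It had 104 normalised counts of Cd274 (the others 143 to 152), 9.28 of Cxcl15 (126 to 297), 466 of Cacnb3 (650.0 to 676) and 1521 of Smad4 (2674 to 3117). Its mean log2 level of the regulatory T cell and exhaustion list was 5.60, against 6.66 to 7.01. Replicate 2 of that group was the highest for Cd4, with 71.6 (8.73 to 14.7), Bcl11b, with 110.3 (7.55 to 16.2), Irf1, with 1627 (1204 to 1291), and Myl1, with 74.0 (0 to 1.89). Its muscle list mean was 7.62, against 2.76 to 3.82. Replicate 1 had 603 of Gas2 (341 to 386) and 924 of Cnot8 (1055 to 1074), and an MHC class I list mean of 12.2, against 12.4 to 12.5. Replicate 4 had 2896 of Mcm4 (2247 to 2388).

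Among the letrozole tumours, replicate 4 had 5418 of Klf5 (2665 to 3080.4) and 466 of Plk4 (632 to 676). Replicate 3 had 899 of Msto1 (805 to 829) and 1640.0 of Cobl (937 to 1097). Replicate 5 had 5388 of Cox4i1 (6737 to 7366), a gene that shares 20.1% of its exon bases with another.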

How the results depend on the processing

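The count of 0 called genes held in 24 of 26 alternatives for the antibody within letrozole-treated mice, including each of 10 left-out tumours. DESeq2 called 9 there, 5 in sham-operated mice and 4 for the difference of effects, and edgeR called 0. The fit with the replicate block called 1 gene, Lama3 (limma adjusted p = 0.0402), and changed no other call. Tumours with the same number deviated together with r of 0.0776, −0.122, 0.106, 0.0453 and 0.0807, so the numbers were not taken as pairs. At an unadjusted p under 0.05 there were 1467 of 38996 genes with no filter and 417 of 14659 with a minimum of 50.

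Of 3138 comparisons of 122 named genes with an alternative, 3060 kept direction and side of the threshold, 10 passed it newly and 68 turned sign, all from values short of it. The log2 difference turned to −0.21 (Cd3e) and −0.065 (Cd8a) with a pseudocount of 5, to −0.088 (Cd3e), −0.010 (Cd8a), 0.045 (H2-K1) and −0.0074 (B2m) with quantile normalisation, and to −0.10 (Cd3e), −0.0066 (Foxp3) and −0.021 (B2m) with array weights. It turned to −0.040 (Cd8a) and −0.080 (Foxp3) with summed transcripts, to −0.52 (Cd3e), −0.17 (Cd8a) and −0.0069 (Foxp3) with edgeR, and to −0.53 (Cd3e), −0.17 (Cd8a) and −0.0040 (Foxp3) with DESeq2. With the muscle covariate it turned to 0.020 (Havcr2), 0.13 (Cxcl9), −0.019 (B2m), 0.074 (Cd74) and 0.065 (Postn), and without the 4 muscle-rich libraries to 0.99 (Cxcl9), 0.26 (Cd74), 0.26 (Spib), −0.15 (Il4), 0.27 (Postn) and 0.21 (Krt1). Without letrozole + anti-PD-1 replicates 1 and 3 it turned to 0.18 (Havcr2), 0.40 (Cxcl9), 0.13 (Gbp2), 0.056 (H2-K1), −0.018 (B2m), 0.41 (Cd74), 0.058 (Lat), 0.61 (Igha), 0.76 (Jchain) and 0.57 (Dcn). Leaving out single tumours gave −0.38 to 0.032 for Havcr2, −0.86 to 0.64 for Cd3e, −0.65 to 0.63 for Cd8a, −0.059 to 0.088 for Foxp3, −1.31 to 0.33 for Cxcl9, −0.13 to 0.071 for Gbp2, −0.094 to 0.040 for H2-K1, −0.12 to 0.12 for B2m, −0.98 to 0.0052 for Cd74, −0.33 to 0.021 for Pgr, −1.78 to 0.14 for Igha, −1.75 to 0.29 for Jchain and −0.83 to 0.0046 for Postn. The cause of these turns was not tested.

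Depth limits Pdcd1lg2, Ctla4, Tigit, Gzmb, Prf1 and Ifng, which were under the level for testing.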
